A study of Mus musculus with 2 samples.

Results

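The immortalized mouse line BV2 stems from microglia, which are the brain's own macrophages. The genes described here are those of the amino acid response, amino acid transport and tRNA charging. They were chosen by gene symbol from a fixed list of 52 genes, of which 48 had at least 1 transcript cluster (a group of probes read as 1 value) that the array annotation pairs with that symbol alone, among 19938 genes in all. The list holds 8 sensors, transcription factors and stress effectors, 8 enzymes of amino acid synthesis, 17 transporters and 19 tRNA synthetases, with 8, 7, 17 and 16 of them measured. Pycr1, Aars, Dars and Mars had no value under this rule. The study asked how a high-nutrient medium changes microglial cells, and its series holds 2 arrays, 1 of BV2 cells in DMEM and 1 of BV2 cells in DMEM/F12. Cells on both arrays were plated in DMEM/F12 with fetal bovine serum and antibiotics, and on the next day received fresh DMEM or fresh DMEM/F12 for 1 d, so that the DMEM array comes from cells moved out of the richer medium. The labels describe the incubation as lasting more than 1 d. BV2 is a single established line, and each array holds the RNA of 1 culture.

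Amino acid shortage is sensed through uncharged tRNA, which activates the kinase GCN2 (gene Eif2ak4). Phosphorylation of the initiation factor eIF2 then lowers general protein synthesis while the transcription factor ATF4 is translated more, and ATF4 induces genes for amino acid synthesis, amino acid import and tRNA charging. DMEM/F12 contains alanine, aspartate, asparagine, glutamate and proline, which DMEM lacks. The amounts of the amino acids present in both media were not compared here. In microglia and other macrophages, amino acid supply supports growth, cytokine production and, through cystine and glycine, glutathione synthesis.

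ATF4 and its dimer partners bind composite elements joining a C/EBP site and an ATF site, and sites of this kind are known in several of these genes. The sequence TGATGNAA was searched on both strands of RefSeq promoter windows (GRCm38.p6, from 250 bases before to 50 bases after a start site), with no other motif searched. This sequence was chosen after the array values were seen. It occurred in 3.97% of all 32851 windows and in at least 1 window of 4.51% of the 27025 genes that have one. Of the 37 listed genes with a window it occurred in 12, or 32.4%: 3 of 7 sensors and effectors, 2 of 7 synthesis enzymes, 2 of 12 transporters and 5 of 11 synthetases. Of 25 other genes listed as targets of the response that have a window, 8 held it, or 32.0%. Because such sites were already known in several of these genes, the shares are a description and not evidence about the list. No window was found by symbol for Eif4ebp1, Cth, Slc1a5, Slc7a2, Slc7a3, Slc7a5, Slc38a1, Cars, Hars, Lars, Mars, Nars, Rars, Vars and Wars. A match is a description of these letters and not proof of a binding site. The lack of a match says nothing of sites outside the windows. The 10 measured genes with a match follow, because the array differences are later set beside them. Each stretch is 30 bases on the strand of the gene, 5′ to 3′, with the matched letters in capitals. Coordinates are those of the 30 bases, while the distance to the start site is that of the first matched letter. The matches of Slc1a4 and of the nearer Slc7a7 site therefore run across the start site.
Chac1 (chr2:119351038-119351067, plus strand, 193 bases before the start site): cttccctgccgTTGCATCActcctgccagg
Vldlr (chr19:27216809-27216838, plus strand, 200 bases before): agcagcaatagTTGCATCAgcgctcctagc
Trib3 (chr2:152344028-152344057, minus strand, from base 15 after the start): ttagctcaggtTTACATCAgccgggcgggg
Asns (chr6:7693214-7693243, minus strand, 23 bases before): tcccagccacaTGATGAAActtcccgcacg
Slc1a4 (chr11:20332699-20332728, minus strand, 4 bases before): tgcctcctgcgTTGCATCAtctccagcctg
Slc7a7 (chr14:54418067-54418096, minus strand, 141 bases before): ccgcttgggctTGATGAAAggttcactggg
Slc7a7 (chr14:54417927-54417956, minus strand, 1 base before): gacctagaagcTGATGCAAcagcttccccg
Gars (chr6:55037960-55037989, plus strand, 30 bases before): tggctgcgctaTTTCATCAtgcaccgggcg
Iars (chr13:49682126-49682155, plus strand, from base 8 after the start): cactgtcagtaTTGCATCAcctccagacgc
Tars (chr15:11399655-11399684, minus strand, 15 bases before): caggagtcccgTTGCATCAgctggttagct
Yars (chr4:129189895-129189924, plus strand, from base 4 after the start): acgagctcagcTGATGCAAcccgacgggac
The matches read TGATGCAA or its reverse complement TTGCATCA in Chac1, Vldlr, Slc1a4, Iars, Tars and Yars and at the nearer Slc7a7 site. Asns, Gars and the farther Slc7a7 site have TGATGAAA or its reverse complement TTTCATCA, and Trib3 has TTACATCA. Aars and Pycr1 also had a match, but no value of their own on the arrays.

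Each value below is the log2 expression value that the authors deposited, and differences are DMEM/F12 minus DMEM on that scale. A single array was made for each medium, so the replicate error is unknown, no test was run and every difference describes these 2 cultures. As a measure of probe agreement only, the differences of the clusters of a gene were compared in the 521 genes with exactly 2 clusters above background on both arrays. Their gap had a median of 0.10 and a 90th percentile of 0.35 on the log2 scale. Background was the 95th percentile of 1243 clusters of chemosensory receptor genes (olfactory, vomeronasal, taste), at 4.15 in DMEM and 4.17 in DMEM/F12. Values of different genes come from different probes and were not ranked against each other. Of 11 measured microglia and macrophage markers 9 were above background on both arrays, among them Csf1r, Itgam, Spi1, Tyrobp and Trem2, whereas Aif1 and P2ry12 were not above it on either array. Of the 19 measured markers of astrocytes, neurons, oligodendrocytes and endothelial cells, 5 (Rbfox3, Mbp, Mog, Sox10 and Cldn5) were above background on both arrays. Of the 11 microglia and macrophage markers 5 were higher in DMEM/F12, 5 lower and 1 equal, with a median difference of 0.00 and a range from -0.66 (Tmem119) to 0.40 (Trem2), and their part in the values described here was not tested.

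No measured gene of the list differed by 1.5-fold, a size reached in the lower direction by 0.635% and in the higher direction by 0.786% of the 13225 genes above background (0.727% and 0.928% of all 19938 genes). With a smaller threshold of 0.32 on the log2 scale, 6 of the 48 were lower in DMEM/F12 by more than that, and all 6 encode transporters. The shares that were lower by more than 0.32 were 5.99% of genes above background and 6.5% of all genes. In the other direction 2 of the 48, Slc7a3 and Cbs, were higher by more than 0.32, where 6.04% of genes above background and 7.22% of all genes were. Counting direction alone, 32 of the 48 genes were lower, 15 higher and 1 equal. Of genes above background 47.4% were lower and 48.5% higher, and of all genes 45.5% and 47.2%. The median difference was -0.08 over the 48 genes and 0.00 over all genes. Of the 48, 47 were above background on at least 1 array.

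**Figure D1:**
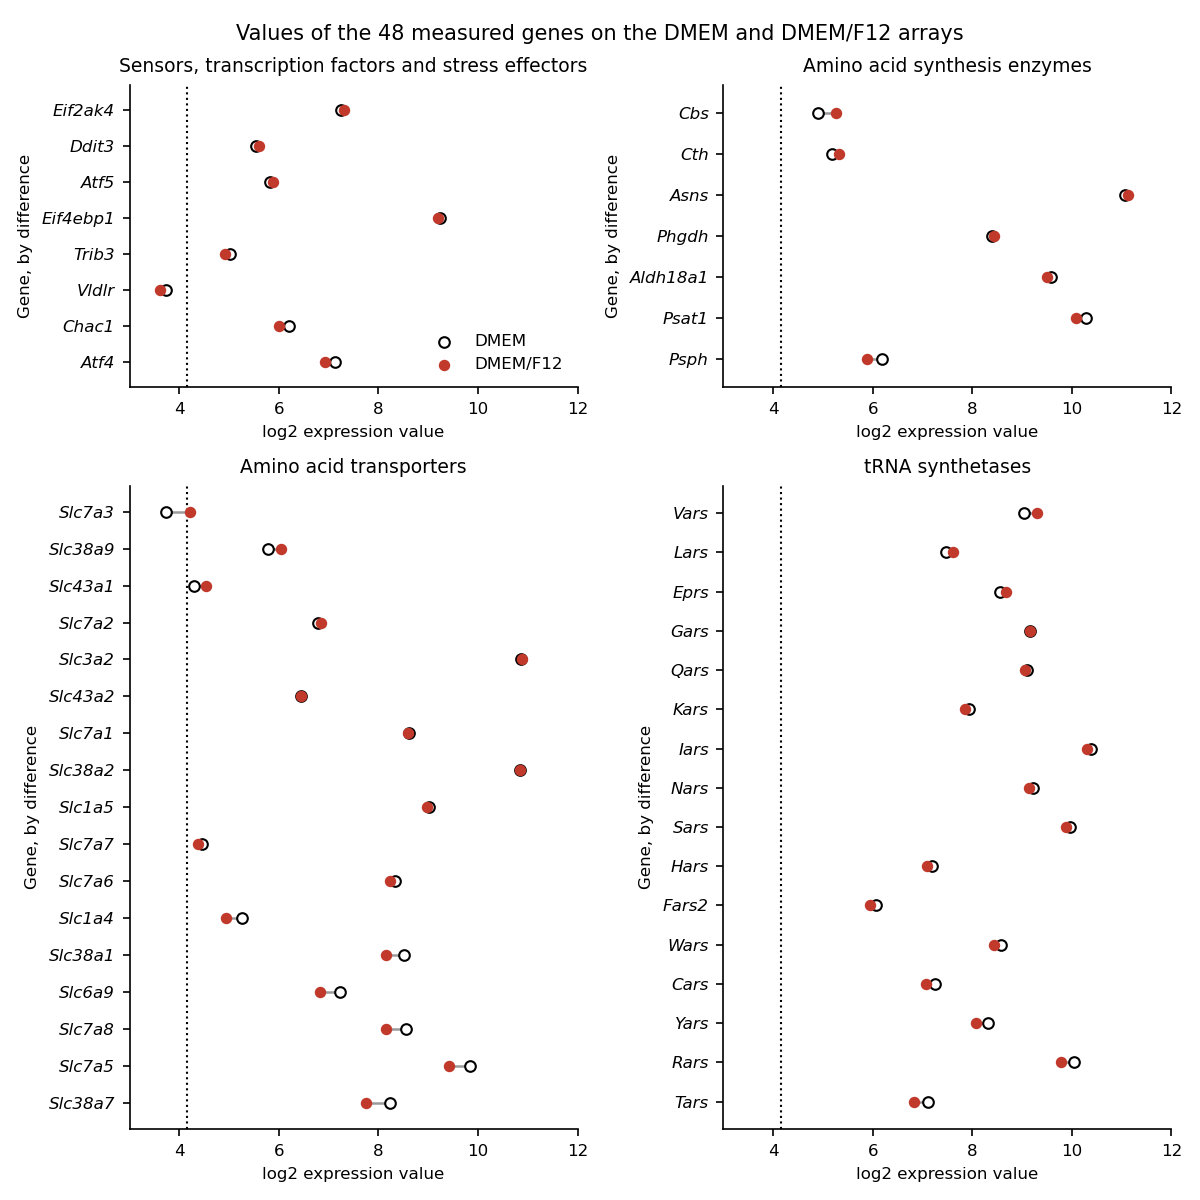
Log2 expression value (x axis) of each of the 48 measured genes (y axis, ordered by difference within 4 role groups) in DMEM (open circles) and in DMEM/F12 (red circles), joined by a gray line, with a dotted line at background. The circles lie close together for most genes, and the widest leftward shifts are those of 6 transporters, from Slc38a7 (8.23 and 7.76) to Slc1a4 (5.26 and 4.93).

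Neither the sensor kinase nor the transcription factors of the response differed by more than 0.32 on the log2 scale. Eif2ak4, the gene of GCN2, had 7.24 in DMEM and 7.30 in DMEM/F12 (log2 values). Atf4, the transcription factor at the centre of the response, had 7.13 in DMEM and 6.92 in DMEM/F12 (difference -0.21). Its mRNA level does not report its translation, which is the step regulated by eIF2. Atf5, a related factor under similar translational control, had 5.82 and 5.88. Ddit3, which encodes the stress factor CHOP, had 5.54 and 5.60. The sensor and these last 2 factors thus had the same difference of 0.06, while Atf4 was on the other side of 0.

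The 4 downstream effectors had slightly lower values in DMEM/F12. Chac1, a glutathione-degrading enzyme induced by ATF4, had 6.20 in DMEM and 6.0 in DMEM/F12 (difference -0.20). Trib3, a pseudokinase that feeds back on the pathway, had 5.02 and 4.91. Eif4ebp1, the translation repressor 4E-BP1, had 9.24 and 9.20. These 3 genes were above background on both arrays. Vldlr, a lipoprotein receptor known to be induced by ATF4, had 3.73 and 3.61, not above background on either array. With both values raised to background the difference is 0.02, which is only that of the 2 backgrounds. Over the 8 genes the median difference was -0.08, with 5 lower and 3 higher, Vldlr included. The median was -0.04 over the 7 genes above background. It was -0.01 with dim values raised to background, where 4 were lower and 4 higher, Vldlr counting as higher through the backgrounds alone.

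The enzymes of amino acid synthesis lay on both sides of 0. Asns, asparagine synthetase, makes an amino acid found in the formula of DMEM/F12 and not in that of DMEM, and had 11.07 in DMEM and 11.13 in DMEM/F12. Aldh18a1 starts proline synthesis from glutamate, which DMEM/F12 also contains, and had 9.59 and 9.51. Differences for these enzymes were therefore 0.06 and -0.08, inside the median gap of 0.10 between clusters of a gene.

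In the serine pathway the first enzyme was slightly higher in DMEM/F12 and the later ones lower. All lay inside the 90th percentile gap of 0.35 between clusters of a gene. Phgdh, which takes carbon from glycolysis into serine synthesis, had 8.40 in DMEM and 8.44 in DMEM/F12. Psat1, the aminotransferase of the second step, had 10.28 and 10.08, a difference of -0.20. Psph, the phosphatase of the last step, had 6.19 and 5.88, a difference of -0.31 or 1.24-fold. Of the genes above background, 6.6% had a difference below that of Psph.
The transsulfuration enzymes, which lead from homocysteine to cysteine, were on the higher side. Cbs, the first of them, had 4.91 in DMEM and 5.26 in DMEM/F12 (difference 0.35, or 1.28-fold), and 94.8% of genes above background had a lower one. Cth, the second, had 5.18 and 5.33, a difference of 0.15. The Cbs difference was at the 90th percentile gap of 0.35 between clusters of a gene, and that of Cth lay inside it. The median over the 7 measured enzymes was 0.04, with 4 higher and 3 lower.

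Among the transporters, 6 of 17 were lower in DMEM/F12 by over 0.32 (log2 scale) and 1, Slc7a3, was higher by over 0.32. Of genes above background, 5.99% were lower and 6.04% higher by that much. Slc38a7, a lysosomal exporter of glutamine and asparagine, had 8.23 in DMEM and 7.76 in DMEM/F12. Its difference of -0.47, or 1.39-fold, was the lowest of all 48, and 1.6% of genes above background had a lower one. Slc6a9, the glycine transporter GlyT1, had 7.22 and 6.82, a difference of -0.40. Slc1a4, a carrier of alanine, serine and cysteine, had 5.26 and 4.93, a difference of -0.33, inside the 90th percentile gap of 0.35. Its relative Slc1a5, the main carrier of glutamine into many cells, had 9.02 and 8.97.

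Light chains of the heterodimeric exchangers differed by unlike amounts. Slc3a2, which encodes the heavy chain CD98 that these light chains share, had 10.86 in DMEM and 10.89 in DMEM/F12. Slc7a5, the light chain LAT1 for large neutral amino acids such as leucine, had 9.84 and 9.41, a difference of -0.43 or 1.35-fold. Slc7a8, the light chain LAT2, had 8.56 and 8.15, a difference of -0.41 or 1.33-fold.
The light chains for arginine and other cationic amino acids were closer to 0. Slc7a6 had 8.34 in DMEM and 8.23 in DMEM/F12, and Slc7a7 had 4.46 and 4.38. Slc7a11, the cystine and glutamate exchanger xCT, is a light chain outside the list of 52 and had 6.85 and 7.66, a difference of 0.81. Slc7a10, a light chain for small neutral amino acids that is also outside the list of 52, had 4.46 and 4.56. The differences of these light chains thus ranged from -0.43 to 0.81.

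Of the uniporters for cationic amino acids, Slc7a1 had 8.61 in DMEM and 8.60 in DMEM/F12, and Slc7a2, the form that supplies arginine in activated macrophages, had 6.78 and 6.84. Slc7a3 had 3.73 and 4.21, a difference of 0.48, but its DMEM value was under background. Raising it to background left a difference of 0.06. Slc43a1 and Slc43a2, uniporters for branched-chain and aromatic amino acids, had differences of 0.24 (4.29 and 4.53) and 0.00 (6.45 on both arrays).

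Among the other SLC38 carriers, the values of Slc38a1 and Slc38a9 depended on the cluster read. Slc38a2, the carrier known to be induced by amino acid shortage, had 10.85 in DMEM and 10.84 in DMEM/F12. Slc38a1, a glutamine carrier of the same system, had a mean of 8.52 and 8.15 over 2 clusters, a difference of -0.37. Its clusters read 6.93 and 6.32 (-0.61) and 10.11 and 9.98 (-0.13), so the size rests on the first cluster, and with the brighter cluster alone 5 rather than 6 transporters were lower by more than 0.32.
Slc38a9, the lysosomal arginine sensor of the mTORC1 kinase pathway, had a mean of 5.78 and 6.05 over 2 clusters, a difference of 0.27. Its clusters read 6.99 and 7.01 (0.02) and 4.57 and 5.09 (0.52), so here too a single cluster carries the difference. Over the 17 transporters the median was -0.05 and the SD between genes 0.28, against 0.22 over genes above background.

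The tRNA synthetases, which attach each amino acid to its tRNA, lay mostly on the lower side in DMEM/F12, and none differed by more than 0.32. Of the 16 measured, 13 were lower and 3 higher (81.2% lower), where 47.4% of genes above background were lower. With quantile normalization or a loess curve 12 were lower, where Gars turned. The median was -0.09 and the range from -0.28 to 0.28. All 16 thus lay inside the 90th percentile gap of 0.35 between clusters of a gene. Tars, for threonine, had 7.11 in DMEM and 6.83 in DMEM/F12, and Rars, for arginine, had 10.05 and 9.79. Yars, for tyrosine, had 8.31 and 8.07, and Cars, for cysteine, had 7.26 and 7.07.
These 4 synthetases had the lowest differences of the group, at -0.28, -0.26, -0.24 and -0.19. Wars, Fars2, Hars, Sars, Nars, Iars, Kars, Qars and Gars lay between -0.14 and -0.01, and 7 of the 16 synthetases were within 0.1 of 0. Iars is read by 2 clusters, with differences of -0.09 and -0.06. Fars2 (6.07 and 5.94) is the mitochondrial enzyme for phenylalanine, while the others of the list act in the cytosol, Gars and Kars also in mitochondria.
The remaining 3 enzymes were on the higher side. Vars, for valine, had 9.03 in DMEM and 9.31 in DMEM/F12 (difference 0.28), which mirrors that of Tars in size. Eprs, which charges tRNAs with glutamate and proline, had 8.55 and 8.68, and Lars, for leucine, had 7.48 and 7.61, each 0.13 higher. Of the synthetases for amino acids found only in the formula of DMEM/F12, Nars for asparagine differed by -0.08 and Eprs by 0.13. The methionine enzyme is named Mars1 in the annotation and was not counted; its cluster read 7.68 and 7.75. The cluster that Aars shares with Exosc6 read 7.60 and 7.55.

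**Figure D2:**
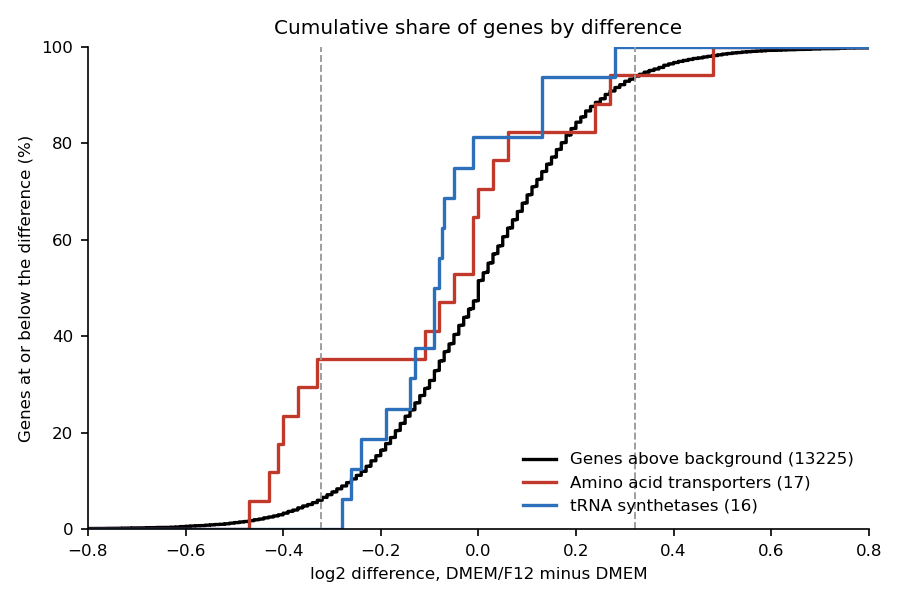
Share of genes (y axis, percent) at or below each difference in log2 value (x axis, DMEM/F12 minus DMEM), for the 13225 genes above background (black), the 17 transporters (red) and the 16 measured tRNA synthetases (blue); dashed lines mark 0.32 to either side of 0. The red curve has 6 of its 17 genes left of the lower line, and the blue curve stays between the lines, with 13 of 16 genes left of 0.

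The 10 measured genes with a promoter match, whose windows are printed above, were set beside the other measured genes. Of the 10, 9 were lower in DMEM/F12, with a median difference of -0.12 and a range from -0.33 (Slc1a4) to 0.06 (Asns). With quantile normalization or a loess curve 8 were lower, where Gars turned. With dim values raised to background 8 were lower, but there the difference of Vldlr is only that of the 2 backgrounds. Gars (-0.01), Iars (-0.075), Slc7a7 (-0.08) and Asns lay inside the median gap of 0.10 between clusters of a gene. Several genes without a match lay inside it as well. Vldlr was not above background on either array. Of the 24 measured genes of the list with a window but no match, 14 were lower and 9 higher, with a median of -0.03 and a range from -0.47 to 0.35. The 8 other genes listed as targets of the response with a match were not mostly lower, with 3 lower, 4 higher and a median of 0.07. Among genes outside the list and above background, 46.6% of the 268 with a match were lower, with a median of 0.00, as were 47.7% of the 10211 without. No test was made of these counts, and the genes share 1 RNA sample per medium.

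**Figure D3:**
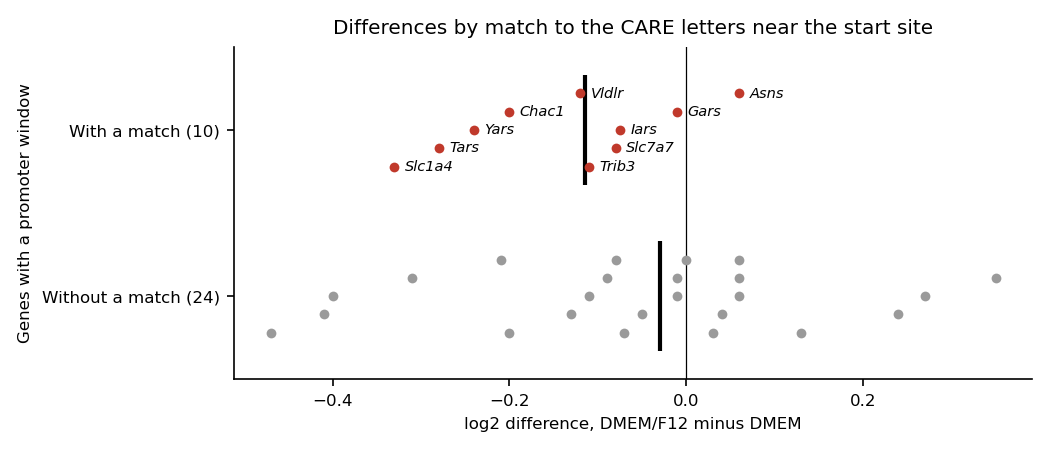
Difference in log2 value between DMEM/F12 and DMEM (x axis, positive where DMEM/F12 is higher) for each listed gene that has a RefSeq promoter window (y axis: 10 genes with a match to TGATGNAA on either strand, in red with names, and 24 without, in gray); dots are offset vertically for legibility and black bars are medians. The red dots lie left of 0 except Asns at 0.06, and the gray dots span -0.47 to 0.35.

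Genes of the wider pathway outside the list did not lie on 1 side. Of 25 other measured genes listed as targets of the response, 12 were lower and 11 higher, with a median of 0.00. This list was broad and holds genes of endoplasmic reticulum protein folding, such as Pdia4 and Dnajb9. Of the 25, 5 were lower by more than 0.32, where 5.99% of genes above background were. The lowest was Pdia4, an endoplasmic reticulum disulfide isomerase, with a mean over its clusters of 7.80 in DMEM and 7.29 in DMEM/F12. Aldh1l2, a mitochondrial folate enzyme, had 5.72 and 5.23. Slc7a11 was the highest of this list, as given above with the light chains.
The eIF2 pathway held the only gene of these pathway lists, besides Slc7a11, that differed by 1.5-fold. Eif2b2, a subunit of the exchange factor that recycles eIF2, had 7.55 in DMEM and 6.93 in DMEM/F12 (difference -0.62). Of the other 4 subunits, Eif2b1, Eif2b4 and Eif2b5 differed by -0.31, -0.30 and -0.11 and Eif2b3 by 0.04. Over the 12 genes of this list, 7 were lower and 5 higher, with a median of -0.09. Ppp1r15b, which directs the dephosphorylation of eIF2, had the highest difference of the list at 0.18.

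The cytosolic phenylalanine enzyme and partners of the synthetases were counted apart. Of these 5 genes 4 were lower, with a median of -0.18, where 47.4% of genes above background were lower. Aimp1, a scaffold of the multi-synthetase complex, had 6.65 in DMEM and 6.29 in DMEM/F12, and Farsb, a subunit of the cytosolic phenylalanine enzyme, had 8.37 and 8.49. Mitochondrial synthetases and their partners were split evenly, with 9 lower and 9 higher and a median of 0.03. They ranged from Cars2 at -0.39 to Wars2 at 0.39.
The 27 other amino acid transporters had 14 lower and 12 higher genes and a median of -0.01, and none differed by more than 0.32. Among those above background they ranged from Slc36a1, a lysosomal carrier, at -0.25 to Slc7a14, above background only in DMEM/F12, at 0.30. The 19 other amino acid enzymes had 9 lower and 7 higher genes and a median of 0.00. Bcat1, a branched-chain aminotransferase, was the lowest at -0.39, and Prodh, which begins proline breakdown, the highest of those above background at 0.14.

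**Figure D4:**
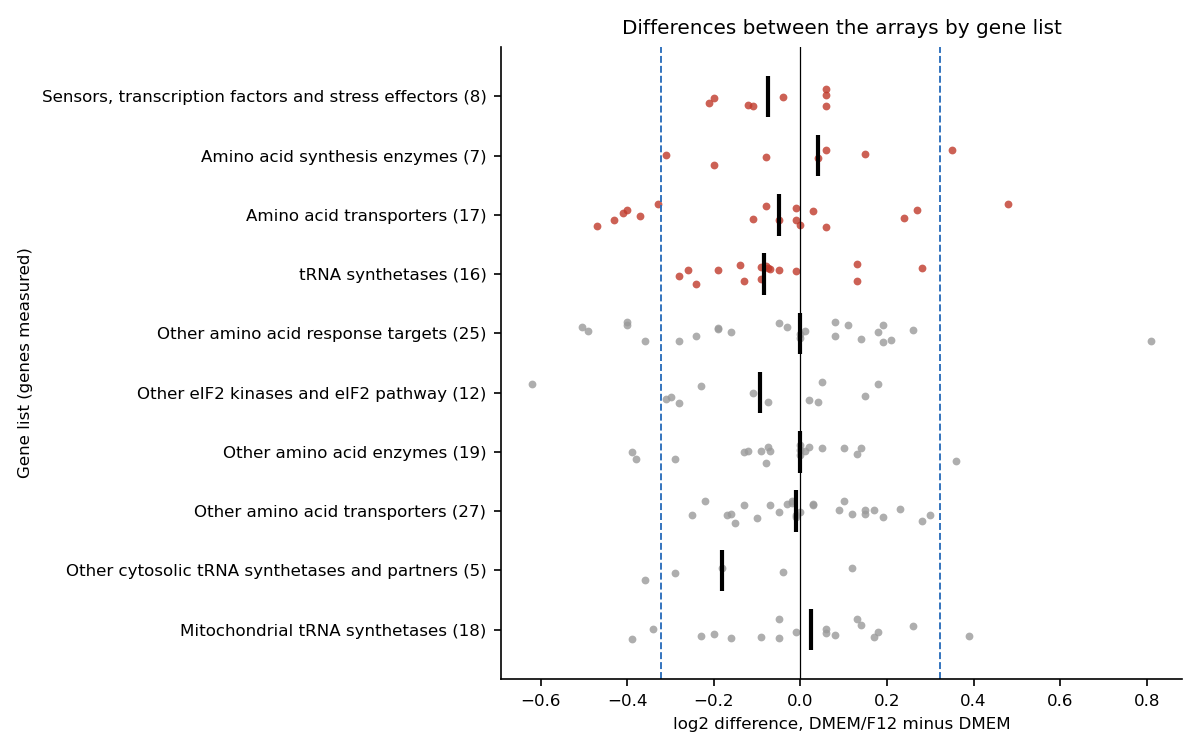
Difference in log2 value between DMEM/F12 and DMEM (x axis, positive where DMEM/F12 is higher) for each gene in the 4 role groups described here (red) and 6 further lists of the same pathways (gray), with measured gene numbers in parentheses on the y axis; black bars are medians, dashed lines mark 0.32 to either side of 0, and dots are offset vertically for legibility. Transporters spread from -0.47 to 0.48, while tRNA synthetases stay between -0.28 and 0.28.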

How the data were processed

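RNA of BV2 cells was hybridized to Affymetrix Mouse Gene 1.0 ST arrays, 1 per medium, and per the labels and methods the authors used Affymetrix Expression Console and Transcriptome Analysis Console. The authors deposited log2 values of 28944 transcript clusters, while their summarization, normalization and genome build were not given in the sources used here. Groups follow the labels. The annotation pairs 21789 clusters with 1 symbol, 1621 with several and 5534 with none. Clusters with 1 symbol stand for 19938 genes, and the 999 genes with several take their mean. No further scaling or filter was applied. Numbers of arrays limit the precision, and no p-value was calculated.

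The members, lists and thresholds were chosen with earlier results of these data known. Every listed gene is accounted for, and those more than 0.32 apart on the log2 scale (the lower threshold) are given in full. Promoter windows come from RefSeq, and the motif was chosen after the array values were seen. Alternatives were 3 scalings, 2 treatments of dim values, the brightest cluster per gene and other thresholds. The gene values were tested on simulated arrays with shifts larger than any in the list, at the 1.5-fold threshold only. Differences near 0.32 were not tested there. Software was pandas 2.3.3, numpy 2.4.6, statsmodels 0.14.6 and matplotlib 3.10.9 under Python 3.11.15.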

Additional observations from a re-analysis of the deposited data

How the results depend on the processing

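No paired analysis was possible because a single array stands for each medium, and leaving out an array leaves no comparison. Moved means a log2 shift of at least 0.1, or for counts a change beyond 1.5 times. At the threshold of 0.32 on the log2 scale 2 genes were higher and 6 lower in DMEM/F12, where 0 and 0 were at 1.5-fold or at 2-fold. None of the 30 recomputed medians and 4 of the 240 recomputed gene differences moved. With values under background raised to it, Vldlr moved to 0.02, set by the backgrounds alone, and Slc7a3 to 0.06. With the brightest cluster, Slc38a1 moved to -0.13 and Slc38a9 to 0.02. The median over the 48 genes ranged from -0.10 with array medians set equal, which lowers all genes by 0.02, to -0.06 with quantile normalization. The number of lower synthetases was 12 or 13 of 16 under these alternatives. The counts beyond 0.32 under each alternative, chosen after seeing the data, were 5 to 7 lower and 1 or 2 higher genes.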
